A study of Harpegnathos saltator with 32 samples.

Results

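Brains of Harpegnathos saltator workers that had received siRNA against Kr-h1 were set against brains of gamergates that had received the control siRNA (GFP in the titles, GRP in the protocol text). The comparison rests on 8 of the 32 libraries of the series, namely 3 worker Kr-h1 libraries (replicates 5 to 7) and 5 gamergate GFP libraries (replicates 5 to 9). They were chosen because they belong to the later of 2 rounds in the labels, here called round 3, in which both castes were on 1 sequencing run. All ants were taken on day 10, the gamergates being labelled as duelers. Dicer-substrate siRNA was injected into the head with a transfection reagent, and central brains were dissected 10 hours later, with 1 brain per library. The knockdown workers therefore differ from the control gamergates in caste and in siRNA at once. Where the text asks how much of the difference belongs to caste alone, 3 worker GFP libraries of the same round (replicates 6 to 8) are set beside them, and 4 gamergate Kr-h1 libraries entered the fit to share its estimate of the spread.

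In Harpegnathos, a worker can leave the worker role, win a dueling tournament and become a gamergate, a reproductive worker with an altered brain and hormone state. Kr-h1 is a zinc finger transcription factor that is induced by juvenile hormone in insects, and it acts together with the ecdysone pathway, whose nuclear receptors (Hr3, Usp) and target factors (Eip93F) set developmental and reproductive programmes. The question of the comparison is whether worker brains with less Kr-h1 come to resemble control gamergate brains and which differences between the castes stay.

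Levels are given as FPKM, the authors' fragment numbers relative to gene length and sequencing depth. Recovered reads ranged from 11.7 M to 16.3 M in the gamergate GFP libraries, from 12.3 M to 22.8 M in the worker Kr-h1 libraries and from 12.3 M to 16.6 M in the worker GFP libraries. The deepest was worker Kr-h1 replicate 6. The tissue label was checked against markers: Syt1, a calcium sensor of synaptic vesicles, ranged from 89.2 to 113.4 FPKM over the 11 libraries, and repo, the glial transcription factor, from 23.7 to 36.9 FPKM. The libraries also held RNA of neighbouring tissue. All 15 muscle markers were above 0 in all 11 libraries, as were 20 of 21 retinal markers, 8 of 10 fat body markers and 6 of 6 haemocyte markers. Retinal RNA varied widely between libraries. Arr2, the photoreceptor arrestin, stood at 32.1 FPKM in gamergate GFP replicate 5 and at 299.4 to 489.8 FPKM in the other 4, and at 78.3 FPKM in worker Kr-h1 replicate 5 against 516.0 and 513.7 FPKM in replicates 6 and 7.

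Kr-h1 itself was under 1 FPKM in each of the 11 libraries and lower in the knockdown workers than in the control gamergates. It was at 0.297, 0.435 and 0.424 FPKM in worker Kr-h1 replicates 5, 6 and 7, which is 16, 37 and 18 recovered reads. The gamergate GFP libraries had 0.571, 0.683, 0.480, 0.676 and 0.809 FPKM, from 24 to 52 reads, and the worker GFP libraries had 0.611, 0.433 and 0.733 FPKM. The knockdown workers thus all lay below the control gamergates, while worker GFP replicate 7 lay inside the knockdown range. The mean log2(FPKM + 0.5) was 0.37 lower than in control gamergates (exact two-sided permutation test, p = 0.03571, where 56 splits allow no less than 0.01786). Leaving out 1 library gave an exact p from 0.02857 to 0.09524, and 5 of the 8 libraries, when left out, took it above 0.05 (worker Kr-h1 replicate 5 and gamergate GFP replicates 5, 6, 8 and 9). Against control workers the difference was -0.30 (exact permutation p = 0.20, where 3 against 3 cannot go below 0.1). Control workers and control gamergates differed by -0.07 (exact permutation p = 0.5893). Pairing libraries by their number gave -0.28 against control gamergates over 3 pairs, with an exact permutation p of 0.25. That is the lowest p that 3 pairs allow, and the knockdown worker was lower in all 3 pairs.

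Genes called higher in control gamergates included 7 of 18 glial markers and 2 of 3 gap junction genes. These 2, Inx2 and Inx3, are also among the 7 glial markers. Genes called higher in knockdown workers included 2 of 17 juvenile hormone and ecdysone factors and 6 of 56 ribosomal protein genes. Of 9427 genes tested, 429 passed an adjusted p under 0.05, which is 4.55% of the genes. Of these, 212 were higher in knockdown workers (2.25%) and 217 were lower (2.30%). The median log2 difference was 0.45 among the higher and -0.51 among the lower genes, and 12 of the higher and 27 of the lower genes differed by at least 2-fold. The 2 groups did not overlap in 199 of the 212 and 203 of the 217 genes, against 16.2% of all genes tested. The count rests on few brains. It was 3 when worker Kr-h1 replicate 6 was left out, 42 when worker Kr-h1 replicate 7 was, 147 when gamergate GFP replicate 7 was and 267 when gamergate GFP replicate 5 was. The 46 called genes picked by the naming rule (all those named as called below except Gat-1B, and also RpL38 and Pglym78) kept their direction in each of these fits, but without worker Kr-h1 replicate 6 none of the 46 passed, with adjusted p from 0.05401 to 0.2281, and without worker Kr-h1 replicate 7 only 5 passed. With the 8 libraries of the comparison fitted alone, 181 genes were called, among them 25 of the 46. With libraries also paired by number in that fit, 24 of the 46 passed. The 22 that did not were kud, Ercc1, Mlc2, wupA, Hr3, Pglym78, Eip93F, Thor, Gs2, SK, Ca-alpha1D, slo, Dscam2, Col4a1, RpS26, RpL30, RpL38, RpL36A, ATPsyngamma, UQCR-C2, Tim10 and numb, with adjusted p up to 0.1202. With all 32 libraries and a batch term, 50 genes were called, 8 higher and 42 lower in knockdown workers, among them 10 of the 46.

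**Figure D1:**
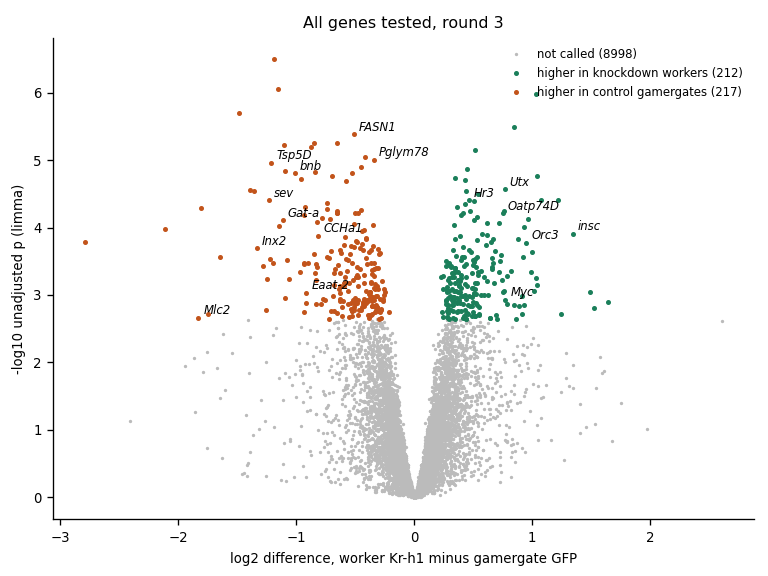
Log2 difference between worker Kr-h1 and gamergate GFP brains (x axis) against -log10 of the unadjusted limma p (y axis) for each of the 9427 genes tested. Green points are the 212 genes called higher in knockdown workers and orange points the 217 called higher in control gamergates, and the named genes include insc on the right and Inx2, Gat-a, sev and bnb on the left.

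The same fit gave the distance between control workers and control gamergates. There 56 genes were called, 0.594% of those tested, with 19 higher in workers and 37 lower. With quantile normalization the split was 33 and 31. Leaving out 1 library moved the 56 to between 1 (without gamergate GFP replicate 7) and 163 (without gamergate GFP replicate 8), and each of the 8 libraries moved it by more than 1.5 times. The 2 comparisons share their 5 gamergate libraries, so their counts are set side by side only. Whether the distance to control gamergates differed with the siRNA is tested by worker Kr-h1 against worker GFP, in which the gamergates cancel. That contrast called 0 genes (0% of 9427) with limma, and 1051 genes had an unadjusted p under 0.05. Limma voom on recovered reads also called 0 genes. Leaving out worker GFP replicate 6 or worker Kr-h1 replicate 6 called 1 gene, and so did dropping the filter on low values.

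Some glial transport and gap junction genes were called lower in knockdown workers than in control gamergates. Glia take up transmitter and are coupled by innexin channels. Of 18 measured glial markers, 7 were called lower in knockdown workers and 0 higher, 14 lay below 0 and 4 above, and the median log2 difference was -0.45, against 0.01 over all genes tested. Of all genes tested, 2.30% were called lower. In whole brains, fewer cells of a type and less RNA per cell cannot be told apart. Inx2, a gap junction innexin, had 16.98, 13.88 and 16.43 FPKM in the knockdown workers. In the control gamergates it had 42.6, 30.2, 37.2, 35.9 and 62.6 FPKM, and in the control workers 25.0, 22.0 and 18.1 FPKM. Both worker groups lay below every gamergate, and the knockdown workers also lay below every control worker. The log2 difference of Inx2 from gamergates was -1.34 ± 0.27 (SE; adjusted p = 0.0197) with the knockdown and -0.90 ± 0.27 (adjusted p = 0.1041) without it, and the change between them was -0.44 ± 0.30 (adjusted p = 0.6226). Inx3, its partner innexin, had 26.9, 24.2 and 25.0 FPKM against 55.7, 49.4, 59.4, 39.6 and 42.9 FPKM in gamergates, with 26.3, 31.99 and 22.97 FPKM in control workers. The workers of either siRNA overlapped each other and none reached a gamergate. Its log2 difference was -0.93 ± 0.20 (adjusted p = 0.02258) for knockdown workers and -0.85 ± 0.20 (adjusted p = 0.05922) for control workers.

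**Figure D2:**
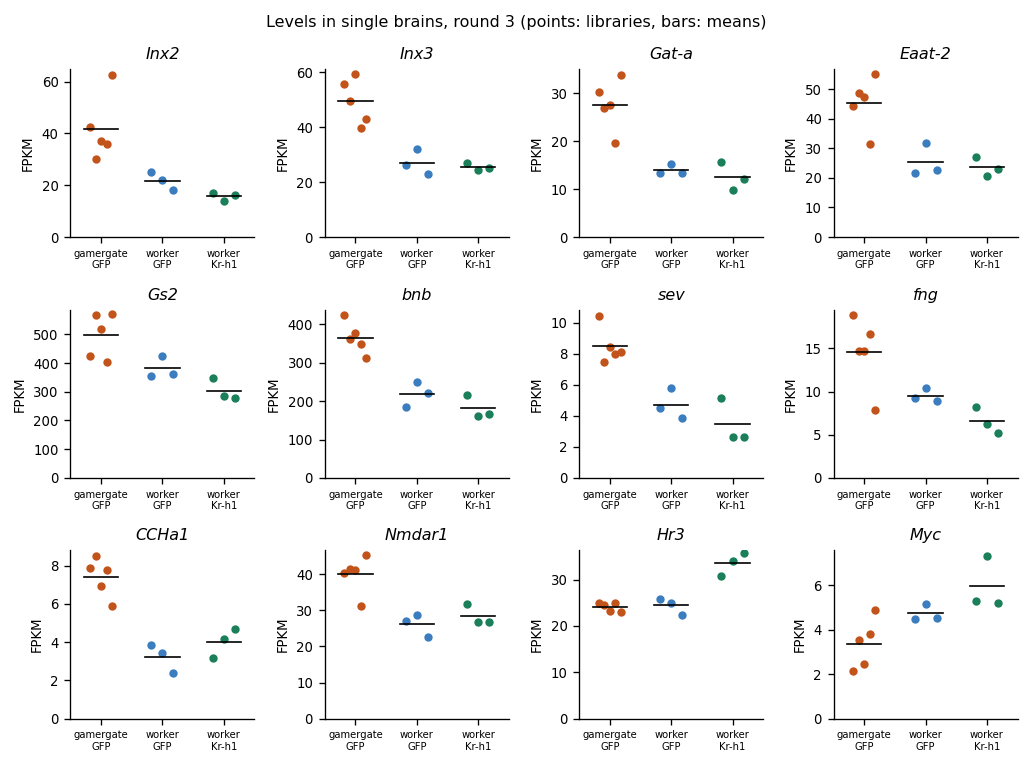
FPKM of 12 genes in single brains of round 3 (y axes from 0), with 1 point per library and a bar at the mean, for 5 gamergate GFP, 3 worker GFP and 3 worker Kr-h1 libraries. In the glial genes Inx2, Inx3, Gat-a, Eaat-2, Gs2 and bnb every knockdown worker lies below every gamergate, and in Hr3 and Myc every knockdown worker lies above them.

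Transporters that clear transmitter were among the called genes. Gat-a, a GABA transporter, had 15.7, 9.78 and 12.1 FPKM in knockdown workers and 30.2, 26.9, 27.5, 19.7 and 33.9 FPKM in control gamergates. Control workers, at 13.4, 15.2 and 13.3 FPKM, lay within the knockdown range. Its log2 difference from gamergates was -1.11 ± 0.20 (adjusted p = 0.01218) with and -0.94 ± 0.20 (adjusted p = 0.05203) without the knockdown. Eaat-2, a glutamate and aspartate transporter, had 27.2, 20.7 and 22.9 FPKM in knockdown workers, 21.8, 31.8 and 22.8 FPKM in control workers and 44.4, 48.6, 47.4, 31.5 and 55.2 FPKM in gamergates. The log2 difference of Eaat-2 was -0.92 ± 0.22 (adjusted p = 0.03243) with the knockdown and -0.82 ± 0.22 (adjusted p = 0.08479) without it. Gs2, glutamine synthetase, was at 349.6, 284.7 and 277.8 FPKM in knockdown workers and at 425.8, 568.5, 517.0, 404.7 and 571.6 FPKM in gamergates. Control workers had 355.3, 424.3 and 363.6 FPKM, above every knockdown worker. Its log2 difference was -0.70 ± 0.14 (adjusted p = 0.02001) with and -0.37 ± 0.14 (adjusted p = 0.1788) without the knockdown.

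Bnb (bangles and beads), expressed in glia of Drosophila, was called as well. It had 216.3, 161.1 and 165.7 FPKM in knockdown workers, 183.6, 248.8 and 221.1 FPKM in control workers and 425.5, 361.9, 376.9, 348.2 and 312.6 FPKM in gamergates. The log2 difference was -1.02 ± 0.16 (adjusted p = 0.007353) with and -0.75 ± 0.16 (adjusted p = 0.05054) without the knockdown. The seventh called marker was Gat-1B, another GABA transporter (130.8 FPKM on average in knockdown workers and 204.0 FPKM in gamergates; log2 difference -0.63, adjusted p = 0.02969), named after its values were seen. Of the 4 markers above 0, Eaat2, a second glutamate transporter gene, ranged from 234.7 to 340.9 FPKM in knockdown workers and from 214.6 to 273.4 FPKM in gamergates (log2 difference 0.32, adjusted p = 0.1791). The transcription factor repo was not called (27.6 ± 4.55 FPKM, SD, n = 3, in knockdown workers and 31.8 ± 3.91, n = 5, in gamergates; adjusted p = 0.3694). The summed level of the 18 markers was 1089 to 1159 FPKM in knockdown workers, 1127 to 1313 FPKM in control workers and 1430 to 1730 FPKM in control gamergates, with no overlap between gamergates and workers. The count of 7 fell to 0 when worker Kr-h1 replicate 6 was left out, to 1 when replicate 7 of that group was and to 4 when gamergate GFP replicate 7 was, it was 3 with all 32 libraries and a batch term, and the list median stayed between -0.58 and -0.30 over the 8 fits that left out 1 library.

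Muscle genes and 1 retinal marker, sev, were among the called genes with a symbol that had the largest log2 differences. Mlc2, a myosin light chain, had 1.97, 0.811 and 4.18 FPKM in knockdown workers, 13.1, 13.9, 6.04, 6.48 and 5.41 FPKM in control gamergates, and 6.38, 7.67 and 30.5 FPKM in control workers. Its log2 difference was -1.83 ± 0.49 (adjusted p = 0.04888), and with libraries paired by number it was -1.88 (adjusted p = 0.07704). The troponins TpnT and wupA (troponin I) were lower by -1.65 ± 0.34 (adjusted p = 0.02141) and -1.25 ± 0.28 (adjusted p = 0.0268), and Mf (myofilin) was at -1.20 ± 0.35 (adjusted p = 0.06338, and 0.03276 with libraries paired). Of the 14 muscle markers measured, 2 were called lower and 0 higher, with a median of -0.24, where 2.30% of all genes tested were called lower. The summed level of the muscle markers was 135.1 to 142.2 FPKM in knockdown workers, 139.8 to 192.2 FPKM in gamergates and 148.8 to 230.4 FPKM in control workers, with none of the markers at 0, and the part of adjacent muscle in these values was not tested. The muscle count was 0 with all 32 libraries and a batch term, and it fell to 0 when gamergate GFP replicate 5, worker Kr-h1 replicate 6 or worker Kr-h1 replicate 7 was left out, and to 1 when gamergate GFP replicate 6, 7 or 8 was left out.

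Of 20 retinal genes measured, 1 was called, against 4.55% of all genes tested. Sev, the receptor tyrosine kinase that specifies a photoreceptor in Drosophila, had 5.13, 2.66 and 2.62 FPKM in knockdown workers, 4.50, 5.82 and 3.86 FPKM in control workers and 10.5, 7.50, 8.46, 8.01 and 8.14 FPKM in gamergates. Each worker lay below each gamergate. Its log2 difference was -1.23 ± 0.21 (adjusted p = 0.01065) with and -0.79 ± 0.21 (adjusted p = 0.08123) without the knockdown. The summed retinal level overlapped between groups, at 351.5 to 950.0 FPKM in knockdown workers and 259.3 to 904.1 FPKM in gamergates. With the retinal level as a covariate, chosen after seeing the data, 445 genes were called in all and 7 of 18 glial markers were called lower. The long-wavelength opsin Lop1 and the opsin Rh5, by contrast, were called higher in control workers than in control gamergates. They were the only 2 of the 20 retinal genes above 0 in that comparison, with 18 below 0 and a median of -0.37. Over all genes tested, 0.202% were called higher there. Lop1 had 183.3, 59.7 and 189.9 FPKM in control workers, 70.0, 25.7 and 50.3 FPKM in knockdown workers and 20.4, 19.8, 27.1, 16.4 and 3.44 FPKM in control gamergates. Its log2 difference from gamergates was 3.09 ± 0.57 (adjusted p = 0.03377) without and 1.59 ± 0.57 (adjusted p = 0.1164) with the knockdown, and the change of -1.50 ± 0.64 did not pass (adjusted p = 0.4134).

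Among neuronal genes, 3 ion channel genes and an adhesion gene were called higher in knockdown workers, and 2 peptide-related genes and 1 receptor gene were called lower. Of 47 synaptic and neuronal genes, 4 were called higher and 0 lower, 35 lay above 0 and the median log2 difference was 0.11. Over all genes tested, 2.25% were called higher and 2.30% lower, and 4872 of 9427 lay above 0. Control workers had a median of -0.11 for these genes against the same gamergates, with 9 of the 47 above 0 (5131 of all 9427). For knockdown workers against control workers the median was 0.26, with 44 of the 47 above 0 (4330 of all 9427). These medians were not tested. SK, a calcium-activated potassium channel, had 24.7, 25.9 and 24.0 FPKM in knockdown workers, above all 5 control gamergates (17.9 to 21.4 FPKM) and all 3 control workers (19.4 to 21.1 FPKM). Its log2 difference from gamergates was 0.35 ± 0.08 (adjusted p = 0.02329), and control workers stood at 0.04 ± 0.08. The other called genes were Ca-alpha1D, an L-type calcium channel (0.39 ± 0.09, adjusted p = 0.03243), slo, a large-conductance potassium channel (0.36 ± 0.09, adjusted p = 0.04337), and Dscam2, a cell adhesion molecule (0.45 ± 0.12, adjusted p = 0.045). With libraries paired by number, slo had an adjusted p of 0.05245 and Dscam2 of 0.101. The count of 4 was 0 without gamergate GFP replicate 7, worker Kr-h1 replicate 6 or worker Kr-h1 replicate 7, and 1 without gamergate GFP replicate 5. It was also 0 with all 32 libraries and a batch term, and 2 with median of ratios scaling or without worker Kr-h1 replicate 5.

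CCHa1, which encodes the neuropeptide CCHamide-1, had 3.15, 4.16 and 4.71 FPKM in knockdown workers and 7.89, 8.48, 6.92, 7.76 and 5.87 FPKM in control gamergates. Control workers had 3.83, 3.44 and 2.37 FPKM, so that both worker groups lay below every gamergate. It was called in both comparisons, at -0.81 ± 0.16 (adjusted p = 0.01655) with and -1.10 ± 0.16 (adjusted p = 0.01808) without the knockdown. The change between them was 0.28 ± 0.18, with a 95% interval from -0.09 to 0.66. In round 2, the earlier round, with castes on different runs, CCHa1 averaged 8.12 FPKM in control workers and 6.56 FPKM in control gamergates. Nmdar1, a subunit of the NMDA-type glutamate receptor, had 31.7, 26.8 and 26.8 FPKM in knockdown workers, 27.0, 28.7 and 22.7 FPKM in control workers and 40.4, 41.5, 41.3, 31.1 and 45.5 FPKM in gamergates. Worker Kr-h1 replicate 5 and gamergate GFP replicate 8 overlapped. The log2 difference of Nmdar1 was -0.48 ± 0.13 (adjusted p = 0.04616) with and -0.60 ± 0.13 (adjusted p = 0.04908) without the knockdown, and the change was 0.12 ± 0.14, with a 95% interval from -0.18 to 0.42. Fur2, a furin protease that cleaves peptide precursors, was lower by -0.53 ± 0.14 in knockdown workers (adjusted p = 0.04727) and by -0.60 ± 0.14 in control workers (adjusted p = 0.05779), and worker Kr-h1 replicate 7 (9.03 FPKM) overlapped gamergate GFP replicate 8 (8.91 FPKM). Of 20 neuropeptide genes, 2 were called lower and 0 higher, and of 23 neurotransmitter receptor genes 1 was called lower and 0 higher. The share called lower over all genes tested was 2.30%. Against gamergates, 9 of the 23 receptor genes lay above 0 in knockdown workers and 1 in control workers. For knockdown workers against control workers, 22 of the 23 lay above 0.

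Ecdysone-induced factors and an ecdysone importer were called higher in knockdown workers than in control gamergates. Hr3, an ecdysone-induced nuclear receptor, had 30.9, 34.0 and 35.7 FPKM in knockdown workers. Control gamergates had 25.0, 24.4, 23.3, 24.9 and 23.1 FPKM, and control workers had 25.9, 25.1 and 22.4 FPKM. The controls of the 2 castes overlapped, and each knockdown worker lay above all of them. Its log2 difference was 0.46 ± 0.08 from control gamergates (adjusted p = 0.01065) and 0.45 ± 0.09 from control workers (adjusted p = 0.1757), while control workers differed from gamergates by 0.02 ± 0.08. In round 2, the earlier round, Hr3 averaged 27.3 FPKM in knockdown workers and 33.6 FPKM in control workers, the reverse order. Eip93F, an ecdysone-induced transcription factor, had 115.9, 132.5 and 149.7 FPKM in knockdown workers, 87.5 to 107.9 FPKM in gamergates and 95.5 to 106.2 FPKM in control workers. The log2 difference from gamergates was 0.44 ± 0.12 (adjusted p = 0.04988, and 0.06732 with libraries paired). Oatp74D, which imports ecdysone into cells in Drosophila, had 10.0, 15.1 and 15.1 FPKM in knockdown workers against 6.50 to 9.30 FPKM in gamergates and 8.20 to 9.58 FPKM in control workers, a log2 difference of 0.75 ± 0.13 from gamergates (adjusted p = 0.01122). Of 17 measured juvenile hormone and ecdysone factors, 2 were called higher and 0 lower, against 2.25% and 2.30% of all genes tested. Leaving out worker Kr-h1 replicate 6 or 7 took the count to 0, and it was 1 without gamergate GFP replicate 5, 7 or 9, under the pairing or with median of ratios scaling. With all 32 libraries and a batch term it was 0, and Hr3 was at 0.28 (adjusted p = 0.5832). The receptor subunit usp had 35.02 ± 4.40 FPKM (SD, n = 3) in knockdown workers and 35.6 ± 2.05 (n = 5) in gamergates.

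The called higher genes with the largest log2 differences are described next for those with a gene symbol, which 76 of the 212 carry. Insc, which orients the spindle of dividing neuroblasts in Drosophila, came first. It had 5.05, 7.60 and 6.97 FPKM in knockdown workers, 1.36, 2.93, 1.68, 1.96 and 4.03 FPKM in control gamergates and 3.91, 3.67 and 4.05 FPKM in control workers. The 2 main groups were apart, and control workers lay below the knockdown workers. The log2 difference of insc from gamergates was 1.34 ± 0.26 (adjusted p = 0.0161) with and 0.67 ± 0.26 (adjusted p = 0.1769) without the knockdown. Orc3, a subunit of the origin recognition complex, had a log2 difference of 0.95 ± 0.19 (adjusted p = 0.01789). Myc, a transcription factor of cell growth, had 5.30, 7.30 and 5.21 FPKM in knockdown workers, 2.13, 3.54, 2.46, 3.81 and 4.87 FPKM in gamergates and 4.49, 5.14 and 4.54 FPKM in control workers, and the log2 difference from gamergates was 0.77 ± 0.19 (adjusted p = 0.03607).

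Utx, a histone demethylase, had 30.2, 38.1 and 38.9 FPKM in knockdown workers, 17.02, 22.6, 19.3, 20.8 and 24.4 FPKM in gamergates and 22.1, 27.8 and 27.0 FPKM in control workers. Each knockdown worker lay above each control of either caste. Its log2 difference from gamergates was 0.77 ± 0.13 (adjusted p = 0.009124), and from control workers it was 0.47 ± 0.14 (adjusted p = 0.2691). The other named higher genes were kud (0.66), Ephrin, a ligand of the Eph receptor (0.62), heca (0.61), Meltrin, an ADAM metalloprotease (0.57), and Ercc1, a subunit of a DNA repair nuclease (0.57), with adjusted p from 0.01636 to 0.03423. Ephrin overlapped between the groups, since gamergate GFP replicate 9 (6.12 FPKM) exceeded worker Kr-h1 replicate 5 (5.84 FPKM).

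Other lowered genes were of several kinds. Tsp5D, a tetraspanin, had 55.9, 31.1 and 35.3 FPKM in knockdown workers, 57.7, 73.8 and 73.3 FPKM in control workers and 107.4, 88.8, 93.2, 88.2 and 83.9 FPKM in gamergates, so that the 3 groups were apart. Its log2 difference from gamergates was -1.21 ± 0.18 (adjusted p = 0.007353) with and -0.44 ± 0.18 (adjusted p = 0.2206) without the knockdown, and the change of -0.77 ± 0.21 had an adjusted p of 0.2193. Qbp-1 had 130.0, 118.1 and 134.9 FPKM against 316.5, 344.3, 232.7, 344.4 and 166.2 FPKM in gamergates, with control workers at 113.0, 167.6 and 128.8 FPKM. The log2 difference of Qbp-1 was -1.08 ± 0.23 (adjusted p = 0.02202) with and -1.01 ± 0.23 (adjusted p = 0.05748) without the knockdown. In the Notch pathway, fng, a glycosyltransferase that modifies Notch, was lower by -1.06 ± 0.24 (adjusted p = 0.0268), and numb, an inhibitor of Notch, was higher by 0.39 ± 0.07 (adjusted p = 0.01671). These were the called members among 18 of the pathway, and fng overlapped between the groups at worker Kr-h1 replicate 5 (8.26 FPKM) and gamergate GFP replicate 9 (7.87 FPKM). The share called over all genes tested was 4.55%. FASN1, fatty acid synthase, had 27.0, 22.7 and 23.1 FPKM against 32.2 to 36.1 FPKM in gamergates and 26.5 to 28.7 FPKM in control workers, a log2 difference from gamergates of -0.51 ± 0.07 (adjusted p = 0.006001). It was the called member among 9 fat body genes, whose summed level of 2257 to 2857 FPKM lay inside the gamergate range of 1735 to 3057 FPKM. Col4a1, a collagen of the basement membrane, was lower by -0.93 ± 0.24 (adjusted p = 0.04337) and was the called member among 5 haemocyte genes, whose sum was 26.3 to 30.6 FPKM in knockdown workers and 21.8 to 32.9 FPKM in gamergates.

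Some ribosomal genes were called higher and some respiratory genes lower in knockdown workers than in control gamergates. As a baseline, 2.25% of all genes tested were called higher and 2.30% lower. Of 56 cytosolic ribosomal protein genes, 6 were called higher and 0 lower, and 52 lay above 0 with a median log2 difference of 0.22. Control workers had a median of 0.27 against the same gamergates. RpL30 had 55.1, 56.2 and 51.5 FPKM in knockdown workers, 41.3 to 45.8 FPKM in gamergates and 54.0 to 62.5 FPKM in control workers, and it was called in both comparisons (0.33 ± 0.08, adjusted p = 0.03589, and 0.40 ± 0.08, adjusted p = 0.04553). RpS26 and RpL36A had adjusted p of 0.06311 and 0.05315 with libraries paired. The ribosomal genes are short, with a median gene span of 1.54 kb against 4.33 kb over all genes tested. The trend over gene span differed between libraries and was hardly present in some, with a rank correlation across genes of -0.05 to 0.11 in knockdown workers and 0.01 to 0.31 in gamergates. With that trend removed the ribosomal count was 1 and the median 0.15. The ribosomal count was 0 with all 32 libraries and a batch term, 0 without gamergate GFP replicate 6 or 7 or worker Kr-h1 replicate 6 or 7, and 2 without gamergate GFP replicate 9. Of 50 oxidative phosphorylation genes, 3 were called lower and 0 higher, namely ATPsynB and ATPsyngamma of the ATP synthase and UQCR-C2 of complex III, at -0.46, -0.34 and -0.29, while the list median was -0.01. Tim10, a chaperone of mitochondrial import, was higher by 0.50 ± 0.12 (adjusted p = 0.03243), the 1 call among 77 genes of the mitochondrial ribosome and import. Thor, the translation inhibitor 4E-BP, was lower by -0.37 ± 0.09 (adjusted p = 0.03423, and 0.06184 with libraries paired), the 1 call among 18 genes of insulin and TOR signalling.

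**Figure D3:**
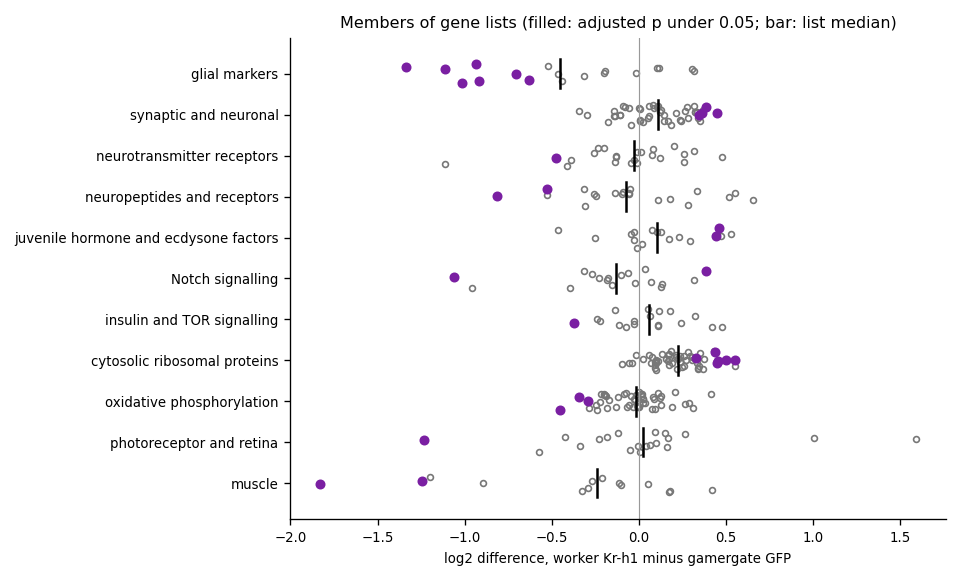
Log2 difference between worker Kr-h1 and gamergate GFP brains (x axis) for the measured members of 11 gene lists, with 1 point per gene, filled where the adjusted p was under 0.05, and a bar at the list median. The glial markers have a median of -0.45 and 7 filled points, all below 0, and the cytosolic ribosomal proteins a median of 0.22 and 6 filled points, all above 0.

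Whether a gene moved towards the gamergate level is read from 3 means, those of control gamergates, control workers and knockdown workers. The knockdown estimate lay between the controls for 11 of 21 panel genes, and for 3230 of all 9427 genes tested (34.26%). The caste gap of the controls and the knockdown change both use the 3 control workers, with opposite sign. Stray values in those libraries alone can therefore place a gene between the controls. The panel was chosen with earlier results of these data known. Crz, the neuropeptide corazonin, had 37.8 ± 9.11 FPKM (SD, n = 5) in control gamergates, 18.2 ± 4.06 (n = 3) in control workers and 27.1 ± 12.7 (n = 3) in knockdown workers. Its knockdown mean rests on replicate 5, at 41.8 FPKM, with 19.0 and 20.6 FPKM in the other 2. Per, the period gene of the clock, had 5.15 ± 1.15, 2.35 ± 0.76 and 3.34 ± 1.41 FPKM in the same order, and ILP-2, an insulin-like peptide, had 10.4 ± 2.01, 22.8 ± 7.38 and 15.5 ± 5.06 FPKM. None of these passed the test of worker Kr-h1 against worker GFP, where adjusted p was 0.5861 for Crz, 0.6244 for per and 0.4706 for ILP-2. The 95% interval of that change on the log2 scale ran from -0.18 to 1.16 for Crz, from -0.19 to 0.97 for per and from -1.13 to 0.03 for ILP-2. In round 2, with castes on different runs, Crz averaged 41.8 FPKM in control workers and 41.3 FPKM in control gamergates. The control differences of per and ILP-2 kept their direction there.

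**Figure D4:**
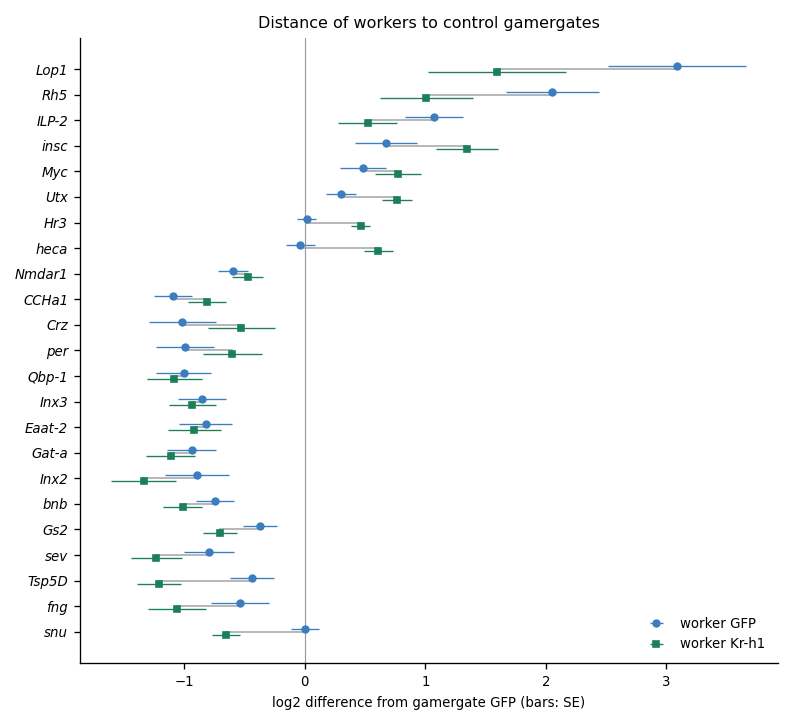
Log2 difference from control gamergates (x axis) of control workers (circles) and knockdown workers (squares) for 23 named genes, with bars of 1 SE. Lop1, Rh5, ILP-2, Crz, per and CCHa1 lie nearer to 0 with the knockdown, while Inx2, bnb, Gs2, sev, Tsp5D, fng, snu, insc, Utx and Hr3 lie farther from 0, and no change between circle and square passed the test.

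The genes with the smallest p for worker Kr-h1 against worker GFP, none of them called, included some at which control castes hardly differed. Snu, an ABC transporter, had 6.77, 5.28 and 4.75 FPKM in knockdown workers, 9.09 ± 1.51 FPKM (SD, n = 3) in control workers and 9.04 ± 0.71 (n = 5) in control gamergates, and its log2 difference from gamergates was -0.66 ± 0.12 (adjusted p = 0.01122). Heca had 33.0 ± 2.82 FPKM (SD, n = 3) in knockdown workers, with 21.1 ± 3.79 FPKM (n = 3) in control workers and 21.5 ± 2.15 (n = 5) in control gamergates. For trc, a kinase of neurite tiling in Drosophila, control workers were called below control gamergates (10.4 ± 0.71 against 13.7 ± 0.40 FPKM; log2 difference -0.38 ± 0.06, adjusted p = 0.02198). Knockdown workers had 13.5, 12.8 and 13.3 FPKM of trc, which overlapped the gamergates and lay above all control workers. The change of 0.32 ± 0.07 had an adjusted p of 0.1757. Both differences of trc use the same 3 control workers, and trc was picked by its p for this change. Eph, the receptor of Ephrin, had 28.01, 28.4 and 30.4 FPKM in knockdown workers, above gamergates (24.4 to 26.2 FPKM) and control workers (19.4 to 22.6 FPKM).

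A wider reading used caste genes chosen in the control libraries of round 2, which share no library with round 3. In that round the gamergates were on another sequencing run, so caste and run cannot be told apart in the choice. The 200 genes highest in round 2 gamergates had a median round 3 difference from gamergates of -0.14 in control workers and -0.21 in knockdown workers. Of these, 28 were called lower in knockdown workers (2.30% over all genes tested) and 4 in control workers (0.392% over all). The median change with the knockdown was -0.07, away from gamergates, against -0.02 over all genes tested. The 200 genes highest in round 2 workers had medians of 0.25 in control workers and 0.15 in knockdown workers. Here 8 were called higher in knockdown workers (2.25% over all genes tested) and 2 in control workers (0.202% over all). Their median change was also -0.07, here towards gamergates. The median change was thus negative in both sets, which is opposite in direction relative to gamergates, and neither median was tested. Over whole transcriptomes, the median rank correlation of worker Kr-h1 replicates 5 to 7 with the 5 control gamergates was 0.957, 0.959 and 0.962, and that of the 3 control workers was 0.957, 0.954 and 0.954. With the control workers, worker Kr-h1 replicate 5 correlated at 0.978, and replicates 6 and 7 at 0.956 and 0.957. These are descriptions across genes that share depth and gene length effects. The gamergate-high genes were long, with a median span of 9.50 kb, and the worker-high genes short, at 2.16 kb. The mean log2 level of the gamergate-high set minus that of the worker-high set was -0.04, 0.07 and 0.00 in worker Kr-h1 replicates 5 to 7, inside the range of control workers (0.01, 0.14 and -0.13) and below all 5 control gamergates (0.16 to 0.71). The 4 gamergate Kr-h1 libraries, at -0.08, -0.01, 0.07 and -0.27, also lay below all control gamergates. Control gamergates 5 and 8, with rank correlations with gene span of 0.01 and 0.03, had 0.22 and 0.16. Replicates 6, 7 and 9, with 0.28, 0.26 and 0.31, had 0.71, 0.50 and 0.43. The part of gene span in this value was not tested.

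**Figure D5:**
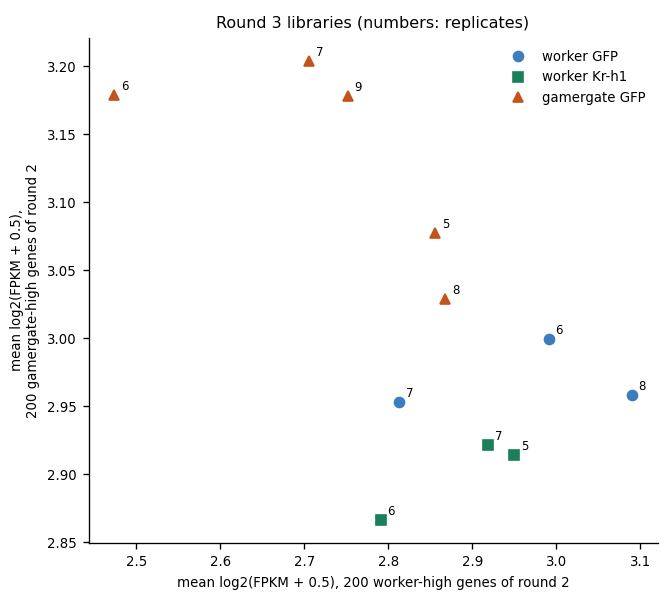
Mean log2(FPKM + 0.5) of the 200 worker-high genes (x axis) and of the 200 gamergate-high genes (y axis) of round 2, for each round 3 library of 3 groups, with replicate numbers beside the points. The 3 knockdown workers lie below all other libraries on the y axis, and the 5 gamergates lie above all workers.

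The same comparison was made in round 2, where knockdown workers and control gamergates were on different runs, so that caste, siRNA and run cannot be told apart. There 3248 of 9601 genes were called, 33.8%. Of the 217 genes called lower in round 3, 207 were also below 0 in round 2 (95.39%), and of the 212 called higher, 162 of the 210 measured were above 0 (77.14%). Over all genes measured in both rounds, 45.66% were above 0 in round 2. Glial genes were again lower in round 2, with log2 differences of -1.25 for Inx2 (adjusted p = 0.02309), -1.04 for Inx3 (adjusted p = 0.0004712), -1.38 for Gat-a (adjusted p = 0.0001485), -1.21 for Eaat-2 (adjusted p = 0.0008235) and -1.02 for bnb (adjusted p = 0.0114). Gs2 was at -0.20 (adjusted p = 0.4693). Sev was at -1.41 (adjusted p = 0.001646), Myc at 1.31 (adjusted p = 0.001583) and FASN1 at -1.12 (adjusted p = 0.00412). Other genes did not pass in round 2, with Hr3 at 0.30 (adjusted p = 0.3092), insc at 0.23 (adjusted p = 0.7247), CCHa1 at -0.33 (adjusted p = 0.3874) and Utx at -0.03 (adjusted p = 0.9426). The muscle genes Mlc2 and wupA were at -0.15 and 0.33. The 2 worker groups of round 2 shared a run, and worker Kr-h1 against worker GFP called 0 of 9601 genes there. For Hr3, Eip93F, Oatp74D, insc, Utx, heca, Eph and trc, the knockdown mean lay below the control worker mean, opposite to round 3. Hr3 had 27.3 ± 2.01 FPKM (SD, n = 4) with and 33.6 ± 8.76 (n = 5) without the knockdown. For Inx2, sev, Tsp5D and FASN1, the knockdown mean of round 2 lay above the control worker mean, also opposite to round 3. Inx2 averaged 21.5 FPKM with and 15.2 FPKM without the knockdown there, and Tsp5D 69.1 and 64.8 FPKM. Genes that kept their direction between the worker groups included snu, Gs2, SK, bnb and fng.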

How the data were processed

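Polyadenylated RNA of single central brains was sequenced in strand-specific libraries from 600 ng of total RNA, per the labels' protocols. The deposited values are FPKM made by the authors for 14001 genes. The submitters' processing notes name bcl2fastq, STAR and featureCounts among their tools, without versions. For the genome build, the annotation and the depth factor behind the FPKM, the sources used here give nothing. Names and gene spans came from the RefSeq table of Hsal_v8.6, which matched 13989 identifiers and left 12 unmatched, and 4117 genes had a symbol. Whether counting used the strand is not given.

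Low FPKM values are whole multiples of 1 read, and a step was found for 12691 of 12692 genes detected in at least 3 libraries, within 0.02 reads. With scales jittered at random the search found one for 2.6% of 500 genes. Even numbers made up 55.1% of nonzero reads, so a recovered read need not be a separate fragment. These reads gave the depths and an alternative voom fit.

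Group differences were fitted to log2(FPKM + 0.5) with limma 3.58.1 (R 4.3.3), with a mean-variance trend and all 15 round 3 libraries. Genes reaching an FPKM of 1 in 3 or more libraries were kept. Calls needed a Benjamini-Hochberg adjusted p under 0.05 over all genes tested. The added 0.5 shrinks differences of weakly expressed genes. Kr-h1 did not reach that level, so its difference was tested by exact permutation. The fit was also run on simulated data with 200 of 9427 genes altered. Between knockdown workers and control gamergates it recovered 69% of 1.5-fold and 89% of 2-fold differences, with 6 false calls among 164. Between the worker groups it recovered 64% and 89%, with 7 false calls among 160. Whether these rates hold for the measured brains was not tested. There, leaving out worker Kr-h1 replicate 6 took the 429 calls against control gamergates to 3.

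Replicate numbers are shared between groups. Deviations of same-numbered worker Kr-h1 and gamergate GFP libraries correlated at 0.575, 0.305 and 0.175 across genes. By the rule that each must exceed 0.1, the numbers were taken to pair these libraries. Differently numbered libraries of these groups correlated from -0.467 to 0.361, so some exceeded same-numbered ones. Same-numbered libraries of the other group pairs correlated from -0.419 to 0.347. Values given with libraries paired by number therefore rest on the rule of 0.1 alone. The labels do not say what a number marks. Nothing but the brain is named as the source of a replicate, so p-values measure the spread between these brains.

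Named genes are Kr-h1, the 10 highest and 10 lowest called genes with a symbol, 5 per direction for the worker knockdown, up to 4 called members of each list, and a fixed panel. Members and lists were chosen with earlier results of these data known. Alternatives covered the pseudocount, filter, scaling, weights, gene span, pairing, libraries fitted and each library left out. Fits with 2 choices combined, without both libraries numbered 5 and with a retinal covariate were chosen after seeing the data.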

Additional observations from a re-analysis of the deposited data

Results flagged for a closer look

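In the 5 gamergate GFP libraries, 4 of 87 gene and group sets tested had 1 library far from the others, where chance gives about 1 in 20. Eph was 26.19 FPKM in gamergate GFP replicate 6, with the nearest library at 24.77 FPKM. Mid1 was 26.61 FPKM in gamergate GFP replicate 9, with the nearest at 22.20 FPKM. ILP-2 was 6.855 FPKM in gamergate GFP replicate 9, with the nearest at 10.98 FPKM. RpL29 was 27.53 FPKM in gamergate GFP replicate 5, with the nearest at 22.13 FPKM.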

How the results depend on the processing

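For worker Kr-h1 against gamergate GFP, the 429 calls became 901 with array weights, 181 with the compared groups alone, 50 with all 32 libraries and a batch term, 228 with the replicate block and the compared groups alone, 282 without both libraries numbered 5 and 224 with the gene span trend removed in the compared groups alone. Leaving out 1 library gave 3 to 490 calls. The replicate block in the 15-library fit gave 600 calls, where 39 of the 46 called genes picked by the naming rule passed. In the compared groups alone, 24 of the 46 passed with the block and 25 without it. The 46 genes kept their direction under every alternative run. For worker GFP against gamergate GFP, the 56 calls became 29 with no filter, 274 with array weights, 16 with the gene span trend removed, 30 with the replicate block, 100 with voom, 15 with the compared groups alone and 103 with all 32 libraries, and 1 to 163 when leaving out 1 library. For worker Kr-h1 against worker GFP, 0 calls became 1 with no filter and 0 to 1 when leaving out 1 library. In round 2, 3248 calls became 5634 with array weights and 2306 to 3693 when leaving out 1 library. For Kr-h1, leaving out 1 library gave -0.4206 to -0.2924, and the replicate block gave -0.2836 (exact permutation p = 0.25, the lowest that 3 pairs allow). The median knockdown change of the gamergate-high genes ran from -0.08939 to -0.02681 (the latter without round 2 gamergate GFP replicate 4), and that of the worker-high genes from -0.1501 to -0.007785. Values of genes that were not called changed sign 13 times. With all 32 libraries, l(2)k09913 was at 0.2019 against gamergates and 0.2033 against control workers, Clk at 0.08589 and Arr2 at -0.5797. Leaving out 1 library gave Arr2 -0.5568 to 1.074, Clk -0.09255 to 0.02897, usp -0.1254 to 0.04536 and Oamb -0.02437 to 0.1803, leaving out both libraries numbered 5 gave usp 0.03413 and Oamb -0.02685, and the retinal covariate gave Arr2 -0.0549. The cause of these shifts was not tested. Low depth limits genes such as Kr-h1, at 16 to 52 reads per library, and Rh5, at 15 reads in its lowest library.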
